A study of Homo sapiens with 2 samples.

Results

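The NF-kB pathway was described through 10 genes in K562 cells with and without overexpressed PML4. They are the transcription factor subunits NFKB1, NFKB2, RELA and RELB, the inhibitors NFKBIA, NFKBIE and TNFAIP3, and the inflammatory cytokine targets CXCL8, CXCL2 and IL6. Every probe set annotated to these genes alone was taken, which gave 18 probe sets for 10 of the 19775 genes that had a probe set of their own. The 10 genes were chosen from a contrast, PML4 against control vector, whose values were already known. Their differences are therefore a description of 2 arrays and no test is attached to them.

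The PML4 array held RNA of K562 cells given a retrovirus for PML4, an isoform of the promyelocytic leukaemia protein that scaffolds PML nuclear bodies. The control array held RNA of K562 cells given the pMSCV vector. K562, an established human leukaemia line from a patient with chronic myeloid leukaemia, carries the BCR-ABL fusion in both groups. Both cultures were selected in G418 for 3 weeks, and the labels do not say whether they were clones or pools. Each group holds 1 array, so no value has a replicate error. PML itself was read by 9 measured probe sets, 5 higher and 4 lower with PML4, from -2.57 to 2.83 on the log2 scale, so the array does not give a single direction for the overexpressed gene. GAPDH, an RNA integrity control, had a ratio of 3' to 5' signal of 1.53 with PML4 and 1.55 in the control. For ACTB, another such control, the ratio was higher, 2.80 with PML4 and 2.94 in the control.

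NF-kB is a family of dimers of Rel proteins that bind kB sites in DNA. In resting cells IkB proteins hold the dimers in the cytoplasm. Signals from cytokine and Toll-like receptors activate the IKK kinases, which mark IkB for destruction, and the freed dimers enter the nucleus. Their targets include chemokines, interleukins and the pathway's own inhibitors, which shut the signal off again. Much of the control of NF-kB thus acts on proteins, which an expression array does not read.

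The start sites of these genes are shown because the promoters of cytokines and of NF-kB inhibitors carry kB sites, and the cytokine targets differed in value from most of the inhibitors on the arrays. RefSeq windows of 250 bases before to 50 bases after the start, on GRCh38.p14, were matched for 8 of the 10 genes, with 12 windows in all because 3 genes have several starts. The windows below are those of CXCL8 (chr4:73740319-73740618, plus strand), CXCL2 (chr4:74099146-74099445, minus strand), IL6 (chr7:22726950-22727249, plus strand), TNFAIP3 (chr6:137867009-137867308, plus strand), NFKBIA (chr14:35404700-35404999, minus strand) and the upstream start of NFKB1 (chr4:102501109-102501408, plus strand). Each is written 5′ to 3′ on the strand of its gene, and capitals mark matches, on either strand, to the 9-letter kB core GGANTTTCC.
CXCL8: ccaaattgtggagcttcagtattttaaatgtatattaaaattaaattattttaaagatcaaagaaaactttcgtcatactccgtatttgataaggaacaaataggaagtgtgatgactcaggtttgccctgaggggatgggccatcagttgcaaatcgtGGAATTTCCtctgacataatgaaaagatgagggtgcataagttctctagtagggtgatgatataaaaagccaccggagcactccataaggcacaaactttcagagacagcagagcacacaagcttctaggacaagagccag
CXCL2: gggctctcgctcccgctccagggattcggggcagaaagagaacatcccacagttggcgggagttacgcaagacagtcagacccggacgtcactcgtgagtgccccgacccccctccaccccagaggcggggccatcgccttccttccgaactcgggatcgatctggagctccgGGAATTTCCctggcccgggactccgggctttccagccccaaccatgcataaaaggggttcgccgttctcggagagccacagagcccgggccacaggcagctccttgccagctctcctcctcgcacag
IL6: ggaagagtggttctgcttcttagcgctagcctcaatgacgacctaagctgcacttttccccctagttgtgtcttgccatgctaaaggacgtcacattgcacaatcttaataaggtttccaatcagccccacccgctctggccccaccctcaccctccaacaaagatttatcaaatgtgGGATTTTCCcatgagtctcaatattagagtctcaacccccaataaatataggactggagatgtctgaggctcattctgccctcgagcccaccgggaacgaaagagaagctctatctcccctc
TNFAIP3: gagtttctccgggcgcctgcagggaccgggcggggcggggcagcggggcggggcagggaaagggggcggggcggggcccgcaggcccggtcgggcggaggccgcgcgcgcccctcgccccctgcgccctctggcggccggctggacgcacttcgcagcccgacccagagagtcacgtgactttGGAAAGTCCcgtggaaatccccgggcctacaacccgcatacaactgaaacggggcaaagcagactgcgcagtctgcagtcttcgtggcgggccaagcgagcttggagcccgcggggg
NFKBIA: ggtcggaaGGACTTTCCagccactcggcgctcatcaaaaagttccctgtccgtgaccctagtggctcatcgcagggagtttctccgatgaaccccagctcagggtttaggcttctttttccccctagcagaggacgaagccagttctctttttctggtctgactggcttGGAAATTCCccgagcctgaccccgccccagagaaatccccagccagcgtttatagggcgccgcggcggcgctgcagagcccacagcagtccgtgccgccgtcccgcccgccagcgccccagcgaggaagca
NFKB1: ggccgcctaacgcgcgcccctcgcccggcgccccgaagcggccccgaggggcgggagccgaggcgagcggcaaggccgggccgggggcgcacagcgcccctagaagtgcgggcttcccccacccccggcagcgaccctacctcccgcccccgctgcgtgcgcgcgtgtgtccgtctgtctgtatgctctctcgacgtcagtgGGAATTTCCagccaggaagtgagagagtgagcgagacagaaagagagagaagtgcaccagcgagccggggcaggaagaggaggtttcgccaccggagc

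The kB core was present in 7 of the 8 genes with a window, and in 549 of the 27305 genes of the RefSeq table (2.01%). These letters were chosen after the windows had been read, so the share is a description. In CXCL8 the match lay 91 to 83 bases before the start, in CXCL2 77 to 69 bases, in IL6 72 to 64 bases and in TNFAIP3 67 to 59 bases, the last on the opposite strand. NFKBIA held matches 242 to 234 and 81 to 73 bases before its start, and NFKB1 held its match 48 to 40 bases before. In NFKB2 the core lay in the third of 3 windows, 20 to 12 bases before that start, and neither window of RELA held it. The matched letters were identical, ggaatttcc, in CXCL8, CXCL2 and NFKB1. The NFKBIA match 81 to 73 bases before its start holds the same letters on the opposite strand.

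The longer kB consensus, searched by its standard 10-letter form on both strands, was found in 6 of the 8 genes and in 13.3% of all genes. It had matches that overlap those of the core in CXCL2, IL6, TNFAIP3, NFKBIA, NFKB1 and NFKB2. Further matches, apart from any core, lay 55 to 46 bases before the start in TNFAIP3 and in 2 NFKB2 windows. In NFKB2 these were in the second window, which holds no core, and 176 to 167 bases before the start in the third. The CXCL8 window and both RELA windows did not hold it. An AP-1 site, TGANTCA, was found on both strands in CXCL8 alone, 137 to 131 bases before the start, and in 9.37% of all genes. A match says only that these letters are present.

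**Figure D1:**
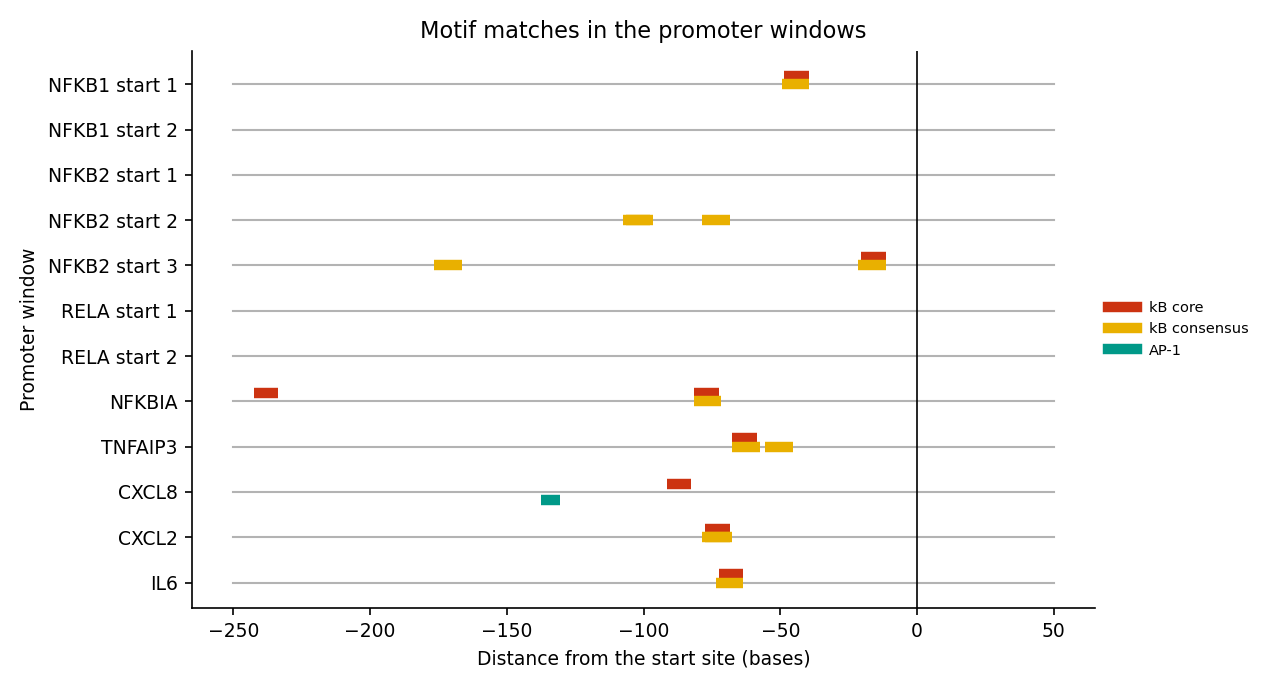
Matches to the kB core, the kB consensus and AP-1 in the 12 promoter windows of 8 genes, drawn by distance from the start site in bases. The kB core lies between the start and 91 bases before it in CXCL8, CXCL2, IL6, TNFAIP3, NFKBIA, NFKB1 and the third NFKB2 window, NFKBIA holds a further match 242 to 234 bases before, and neither RELA window holds a match.

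The 3 cytokine targets and TNFAIP3 had lower signals with PML4. The subunits and the IkB inhibitors stayed within 1.64-fold of the control, and so did CXCL2, at 1.49-fold lower. CXCL8 was at least 6.35-fold lower, TNFAIP3 was 3.08-fold lower and IL6 was 2.14-fold lower. A gene was called when it differed by at least 2-fold between the arrays, with signals under the floor of 72.4, the median of all human probe sets, raised to it. These 3 of 10 genes were called lower and none was called higher, where 3.21% of all 12541 measured genes were called lower and 1.23% higher. Over all genes these were 402 lower and 154 higher calls, which became 281 and 196 after quantile normalization and 306 and 187 after loess centring, while the members held the same counts of 3 and 0. Since the genes were proposed from this contrast, nothing is read from their excess. The arrays read whole cultures, so fewer cells with a transcript and less of it per cell cannot be told apart.

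All 10 genes were measured, meaning that a probe set exceeded the floor on 1 or both arrays. CXCL8 and NFKB2 were above it on 1 array only. Of the 18 probe sets 13 were measured and 5 lay under the floor on both arrays. For genes with several, the measured probe set of highest mean log2 signal stands for the gene.

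**Figure D2:**
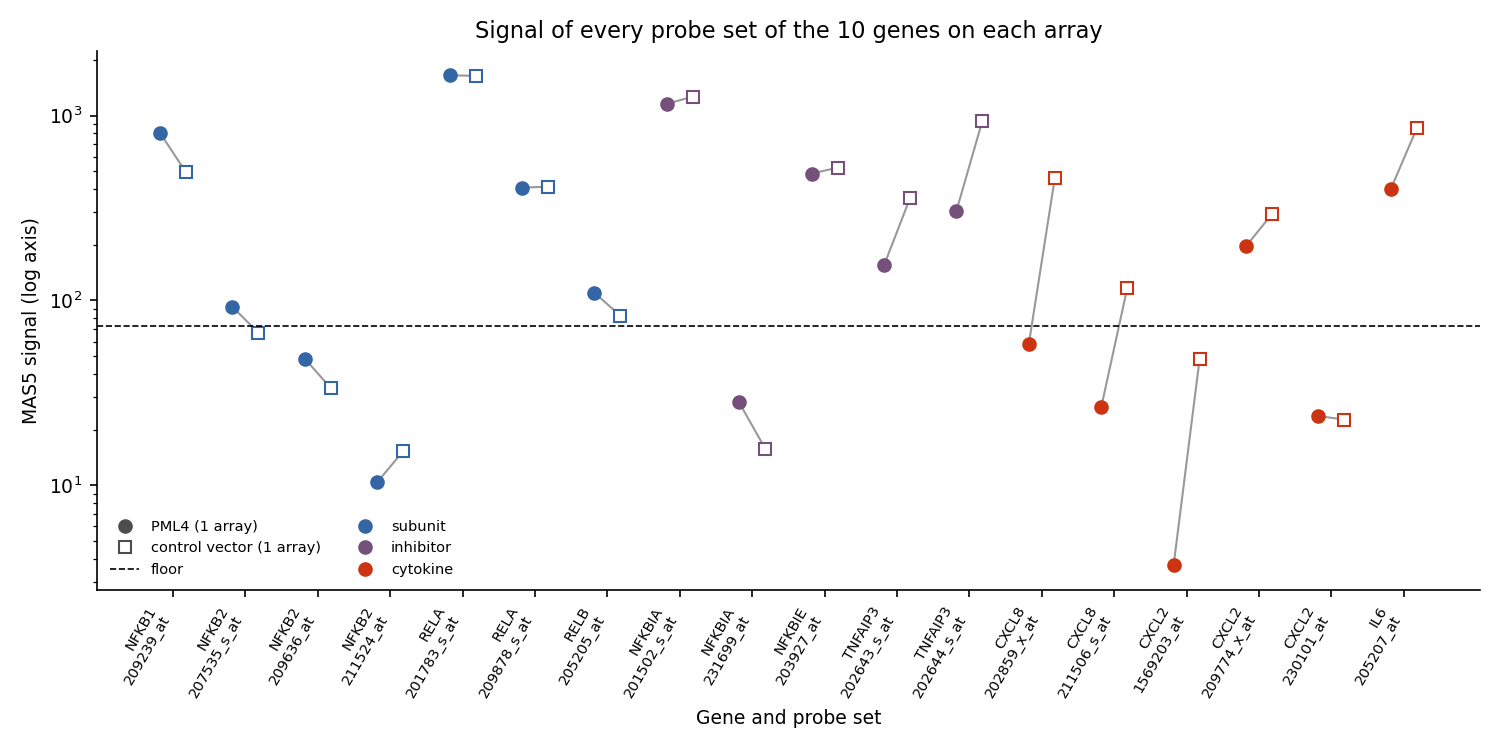
MAS5 signal (log axis) of all 18 probe sets on the PML4 array (filled circles) and the control array (open squares), 1 array each, coloured by role, with the floor of 72.4 as a dashed line. Both measured CXCL8 probe sets, both TNFAIP3 probe sets and the IL6 probe set sit lower on the PML4 array, and the pairs of RELA, NFKBIA and NFKBIE above the floor are nearly level.

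Among the subunits none was called, and in the probe set that stands for each gene all 4 had a higher signal with PML4. NFKB2 was above the floor on the PML4 array alone, so its value could only come out higher. RELA lay at 0.01 on the log2 scale, and its sign changed between processing settings. NFKB1, which encodes p105 and its processed DNA-binding form p50, was at 808.1 on the PML4 array and 493.6 on the control array. This 1.64-fold higher signal, 0.71 on the log2 scale, comes from a single probe set. Genes at least 1.5-fold higher made up 5.7% of those measured, and genes at least 1.5-fold lower 11.8%. NFKB1 was the member with the largest difference upward.

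RELA, the p65 subunit with a transactivation domain, was level in both probe sets. The brighter was at 1651.9 with PML4 and 1638.9 in the control, and the other at 407.6 with PML4 and 412.6 in the control. RELB, the partner of p52 in the non-canonical pathway, was at 110.2 with PML4 and 82.7 in the control, 1.33-fold higher. Both values lie close to the floor. NFKB2, the precursor p100 of p52, was at 92.5 with PML4 and under the floor in the control, at 66.9. Its other 2 probe sets, at 48.5 and 10.4 with PML4 and 33.6 and 15.3 in the control, were under the floor on both arrays. The median of the subunits was 0.38 on the log2 scale, beside -0.05 for all measured genes. It lies between NFKB2 at 0.35 and RELB at 0.41, both with signals near the floor.

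The inhibitors split. NFKBIA, or IkB-alpha, which retains NF-kB dimers in the cytoplasm and is itself an NF-kB target, was at 1157.1 with PML4 and 1266.2 in the control, 1.09-fold lower. Its other probe set, at 28.1 with PML4 and 15.8 in the control, did not reach the floor. NFKBIE, or IkB-epsilon, was at 485.5 with PML4 and 522.8 in the control, 1.08-fold lower. Both differences are smaller than 0.30 on the log2 scale, the median gap between measured probe sets of the same gene on this platform (19460 pairs in 6143 genes).

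TNFAIP3, the ubiquitin-editing enzyme A20 that ends signalling upstream of IKK, was lower in both of its probe sets. The brighter was at 304.6 with PML4 and 938.5 in the control, 3.08-fold lower. The other was at 154.6 with PML4 and 357.7 in the control, 2.31-fold lower. All 4 signals were above the floor. Among all measured genes 0.423% had a difference as low as that of TNFAIP3, and 0.47% were at least 3-fold lower.

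All 3 cytokine genes had lower signals with PML4. CXCL8, the neutrophil-attracting chemokine interleukin-8, was at 58 with PML4, under the floor, and 460 in the control. Its difference is a bound of -2.67 on the log2 scale, set by the floor. Its other probe set was at 26.4 with PML4, also under the floor, and 116.7 in the control, at least 1.61-fold lower. Both probe sets were thus above the floor in the control alone. The brighter one ends in _x_at, an ending by which the array maker marks probes that may bind other transcripts, so its size may hold signal of related sequences.

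IL6, a cytokine of the acute-phase response, was at 400.5 with PML4 and 856.5 in the control, -1.10 on the log2 scale. It has a single probe set, and 2.42% of measured genes lay as low. CXCL2, a chemokine that binds the same receptor CXCR2 as CXCL8, was at 196.7 with PML4 and 293.5 in the control, 1.49-fold lower and not called. Its probe set also ends in _x_at. The other 2 CXCL2 probe sets were under the floor on both arrays, at 3.7 and 23.7 with PML4 and 48.5 and 22.7 in the control.

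The median of the 3 cytokines was -1.10, and that of the 7 subunits and inhibitors was 0.01. TNFAIP3 was the only one of those 7 inside the range of the cytokines, which ran from -2.67 to -0.58. The other 6 ran from -0.13 to 0.71 and did not overlap it. Over all measured genes 12.1% lay at or below CXCL2, the upper end of the cytokine range, and nothing is read from the gap, since the genes were chosen from this contrast. Calls were more frequent among dim genes: when genes were cut into 4 equal groups by mean log2 signal, 7.24% of the dimmest group, which holds CXCL8, were called lower. In the next group, which holds TNFAIP3 and IL6, the share was 3.99%, and in the brighter groups it was 0.893% and 0.702%. From the dimmest group to the brightest, 2.26%, 1.28%, 0.861% and 0.51% were called higher. The median signal of the human probe sets was 64 on the PML4 array and 80.6 on the control array. Dim genes thus leaned lower with PML4 across the array.

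**Figure D3:**
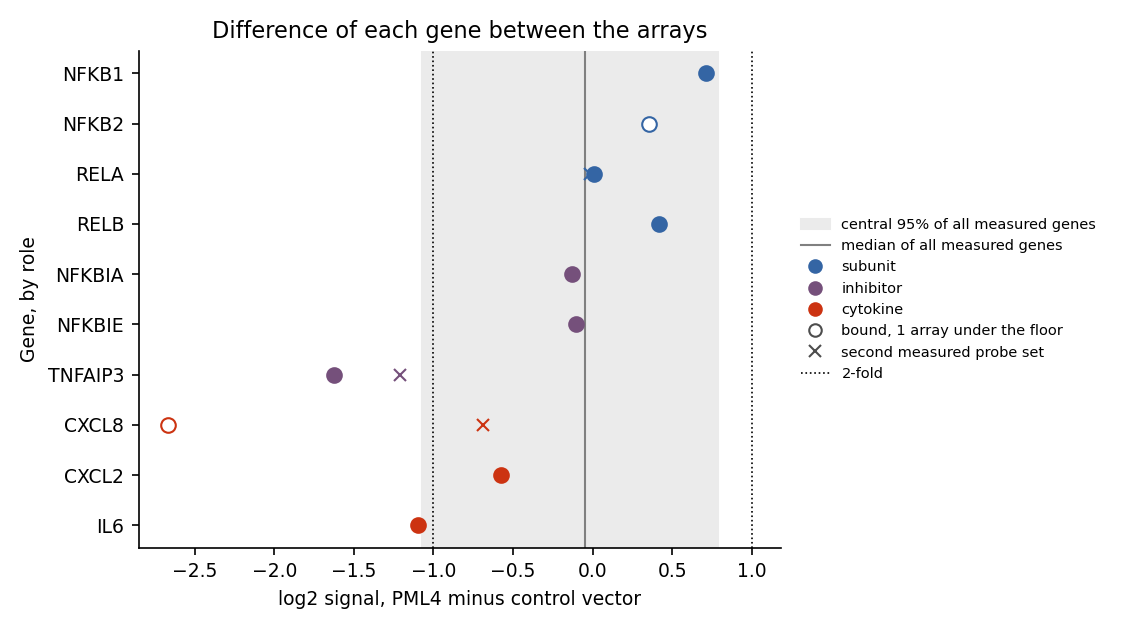
Difference in log2 signal, PML4 minus control vector, for each gene by role, with 1 array per group. CXCL8 at -2.67 (open, a bound), TNFAIP3 at -1.62 and IL6 at -1.10 lie beyond the 2-fold line and below the grey central 95% of all measured genes, which starts at -1.07, and the 4 subunits lie between 0.01 and 0.71.

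The genes with values nearest to the CXCL8 bound were S100P, a calcium-binding protein, and PAPPA, a protease of IGF-binding proteins, at 7.98-fold and 6.90-fold lower. On the other side were CHAC1, which breaks down glutathione, at 5.19-fold lower, MAP4K3-DT, at least 5.03-fold lower, and MUC4, a membrane mucin with a bound of -2.32 on the log2 scale. The place of CXCL8 among them is set by the floor and is not defined, and with a single pair of arrays such closeness is a likeness of 1 value.

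CXCL8 and CXCL2 lie in the chemokine cluster of chromosome 4, whose values were read after those of the members. Of the 9 protein-coding genes from CXCL8 to CXCL2, 4 were measured: CXCL8, PF4, CXCL3 and CXCL2. CXCL3, a chemokine closely related to CXCL2, was at 114.7 with PML4 and 184.2 in the control, 1.61-fold lower. PF4, the platelet chemokine, was at 48.5 with PML4 and 77.2 in the control, the control just above the floor. CXCL6, PF4V1, CXCL1, PPBP and CXCL5 were under the floor on both arrays. CXCL1, CXCL2 and CXCL3 are closely similar in sequence, so signal may be shared between their probe sets.

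The rest of the pathway was read through 11 lists holding 179 genes, of which 117 were measured. Of these 4 were called lower (3.42%) and 1 higher (0.855%), shares near those of all measured genes. The pooled median was -0.08. The lower calls were TLR5, C3, ZFP36 and ATF3, and the higher call was IL1RL1. After centring on the median gene, quantile normalization or loess centring the calls of TLR5, C3 and ZFP36 ended, and those of ATF3 and IL1RL1 held.

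The core machinery had no call, where 3.21% of all measured genes were called lower and 1.23% higher, and nothing is read from this. None of 4 measured genes for other subunits and IkB-type proteins differed by 2-fold. The brightest, REL, the c-Rel subunit, was at 1362.9 with PML4 and 1079.1 in the control, and NFKBIZ, a nuclear IkB, was at 1039.4 with PML4 and 1098.2 in the control. Of 14 measured IKK genes and upstream kinases none was called, and they ran from -0.44 to 0.50 with a median of 0.04. MAP3K7, the kinase TAK1, was at 3630.3 with PML4 and 3305.6 in the control, and its partner TAB2 was at 3057.1 with PML4 and 2943.8 in the control. Of 16 adaptors and ubiquitin ligases none was called, with a median of -0.12. IRAK1, a kinase of the interleukin-1 pathway, was at 6608.9 with PML4 and 6720.6 in the control, and BIRC2, the ligase cIAP1, at 5224.9 with PML4 and 4445 in the control.

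Of 14 measured genes for other brakes on the pathway none was called, where 3.21% of all measured genes were called lower. Among them 9 had a higher and 5 a lower signal, and the median was 0.07. The values ran from -0.61 to 0.63. TAX1BP1, an adaptor of A20, was at 6774.5 with PML4 and 6465.4 in the control. SOCS1, an inhibitor of cytokine signalling, was at 2049 with PML4 and 1941.2 in the control.

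Receptors held a call in each direction among 12 measured genes, and 8 more were under the floor on both arrays. IL1RL1, the receptor for interleukin-33, was at 340.1 with PML4 and 103.1 in the control, 3.30-fold higher, with all 3 of its measured probe sets higher. TLR5, the flagellin receptor, was at 69.2 with PML4, under the floor, and 149.6 in the control, at least 2.07-fold lower. The receptors for tumour necrosis factor were closer: TNFRSF1A was at 1030.7 with PML4 and 1053.6 in the control, and TNFRSF1B was at 618.2 with PML4 and 802.3 in the control. Of 12 ligands 3 were measured, and TNF, IL1A, LTA and IL18 were among the 9 under the floor. LTB was at 211.9 with PML4 and 272.6 in the control, CD70 at 347.8 with PML4 and 255.5 in the control, and IL1B at 253.2 with PML4 and 159.7 in the control.

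Other cytokine targets were mostly under the floor. Of 21 genes with a probe set of their own 17 were under the floor on both arrays, among them CXCL1, CXCL10, CCL5 and CCL20. The 4 measured genes all had lower signals and none was called, where 6936 of all 12541 measured genes had a lower signal and 5605 a higher. CCL2 was above the floor on the control array alone, so its value could only come out lower. With the 25th percentile as floor this list held 3 lower calls, CCL2, CCL5 and IL11, and 2 higher, CXCL10 and CXCL11, named after their values were seen. IL23A, a subunit of interleukin-23, was at 201.8 with PML4 and 328.7 in the control, 1.63-fold lower, and CSF1, a macrophage growth factor, was 1.40-fold lower. CCL2, a monocyte chemokine, was at 69.2 with PML4, under the floor, and 139.3 in the control, at least 1.92-fold lower, and CXCL3 is given above. The list's median was -0.69.

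Targets that act in adhesion, survival and metabolism had 1 call among 19 measured genes, with 7 higher and 12 lower and a median of -0.23. The call was C3, the central complement component, at 227.3 with PML4 and 454.9 in the control, just past 2-fold. CFLAR, an inhibitor of caspase-8, was at 4671.6 with PML4 and 4126.2 in the control, with 8 of its 13 measured probe sets higher. CD69, an activation antigen, was at 3392.4 with PML4 and 4701.5 in the control, 1.39-fold lower.

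**Figure D4:**
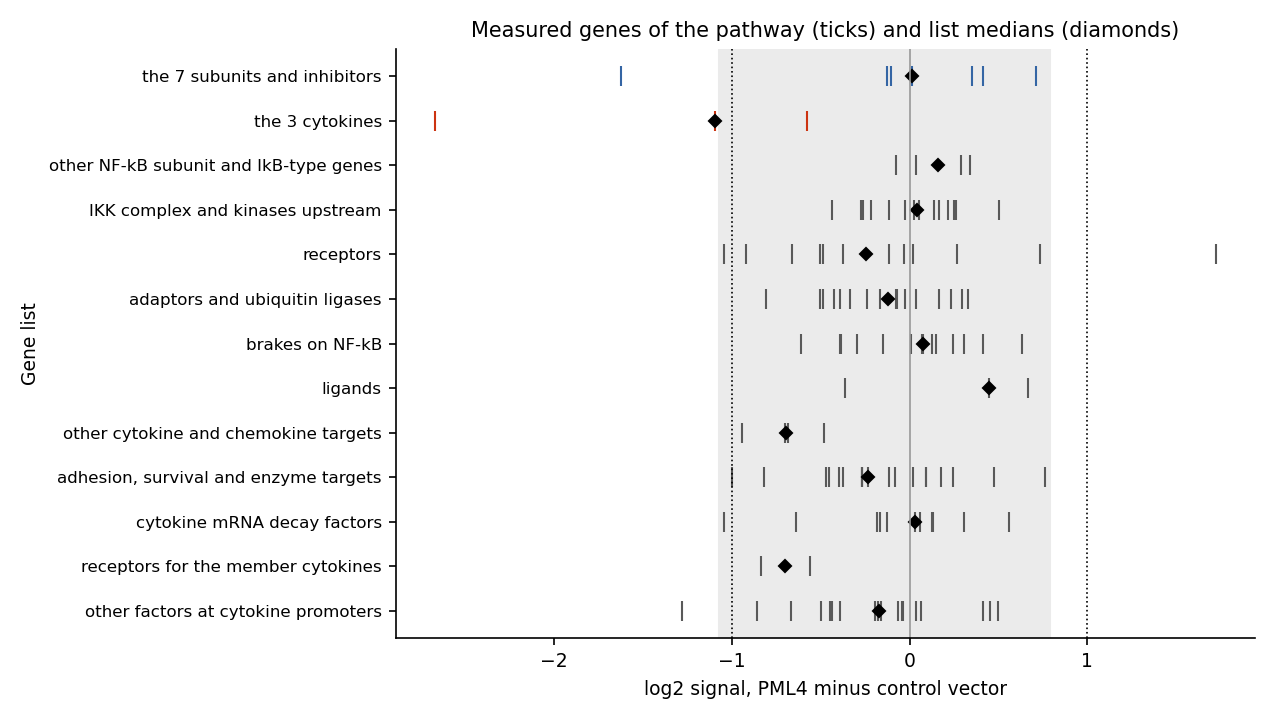
Difference in log2 signal, PML4 minus control vector, for each measured gene (ticks) of the 10 members and of the 11 pathway lists, with list medians as diamonds and 1 array per group. The 3 cytokines have a median of -1.10 and the 4 measured other cytokine targets one of -0.69, while kinases, adaptors and brakes lie around 0 within the 2-fold lines.

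Factors that bind beside NF-kB at cytokine promoters and factors that control cytokine mRNA decay each held 1 lower call. Of 18 measured promoter factors ATF3, a stress-induced bZIP factor, was at 355 with PML4 and 862.5 in the control, 2.43-fold lower, with all 3 measured probe sets lower. The list had 13 lower and 5 higher signals and a median of -0.17. JUND, an AP-1 subunit, was at 8600.2 with PML4 and 6278 in the control, and STAT3 was at 6239.9 with PML4 and 8193.2 in the control. JUND was higher in 2 of its 3 measured probe sets, and STAT3 was lower in only 2 of its 4. Of 11 decay factors ZFP36, or tristetraprolin, which destabilises cytokine mRNAs and is induced by inflammatory signals, was at 311.8 with PML4 and 643 in the control, 2.06-fold lower. HNRNPD was at 14942.3 with PML4 and 13659.8 in the control, and ELAVL1, the stabilising protein HuR, at 10851.3 with PML4 and 8773.3 in the control. HNRNPD was higher in 5 of its 7 measured probe sets, and ELAVL1 in only 2 of its 4.

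Receptors for the member cytokines were read last. CXCR1 and CXCR2, the receptors of CXCL8, and ACKR1 were under the floor on both arrays. IL6ST, the signalling chain gp130 of the interleukin-6 receptor, was at 2103 with PML4 and 3754 in the control, 1.79-fold lower with all 4 measured probe sets lower. IL6R, the ligand-binding chain, was at 71.3 with PML4, under the floor, and 106.8 in the control.

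Across the array, genes with a kB core near the start were called lower about as often as genes without it, which was not tested. Among 225 measured genes with the core outside the 10 members, 5 were called lower (2.22%) and 2 higher (0.889%). Among 9920 genes whose windows lacked it, 276 were called lower (2.78%) and 115 higher (1.16%), and both medians were -0.04. The genes with a core called lower were TRABD, KDM6B, HSD11B1-AS1, OAS3 and UEVLD, and those called higher were IL18RAP and C2orf76, all named after their values were seen. KDM6B, a histone H3K27 demethylase, was at 469.2 with PML4 and 1198.6 in the control, and IL18RAP, a chain of the interleukin-18 receptor, at 295.4 with PML4 and 103.7 in the control.

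Markers of cell types were read as lists. Sums add the highest signal on each array of every gene with a probe set of its own, also of genes under the floor. Of the K562 and erythroid markers all 8 with a probe set of their own were measured, with sums of 69038.7 with PML4 and 44561.8 in the control. HBZ, the embryonic zeta-globin, was called higher (3.90-fold), and ALAS2, an erythroid enzyme of heme synthesis, and EPOR, the erythropoietin receptor, were called lower (2.57-fold and 2.08-fold). The brightest, TFRC, the transferrin receptor, was at 31653.7 with PML4 and 17625.2 in the control, and HBE1, epsilon-globin, was at 24540.1 with PML4 and 18103.9 in the control. Of the markers of monocytes and macrophages, which make CXCL8 and IL6, 5 of 11 were measured and none was called, and CD14, CD163 and FCGR1A were under the floor on both arrays. The summed signal of all 11 was 4641.4 with PML4 and 4529 in the control. The neutrophil markers had 1 measured gene of 8, CSF3R, called lower, with a summed signal of 300.3 with PML4 and 637.8 in the control. The lymphocyte markers had 4 of 7, with CD3D and CD3G called higher and a sum of 5650.9 with PML4 and 3051.4 in the control. The fibroblast and endothelial markers had 3 of 11, none called, and sums of 2559.8 with PML4 and 2233.2 in the control. Of these other lists the brightest genes were LYZ and ITGAM, CSF3R, CD3D and CD3G, and PECAM1 and COL1A1. The part of the erythroid, neutrophil and lymphocyte values in the results was not tested.

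**Figure D5:**
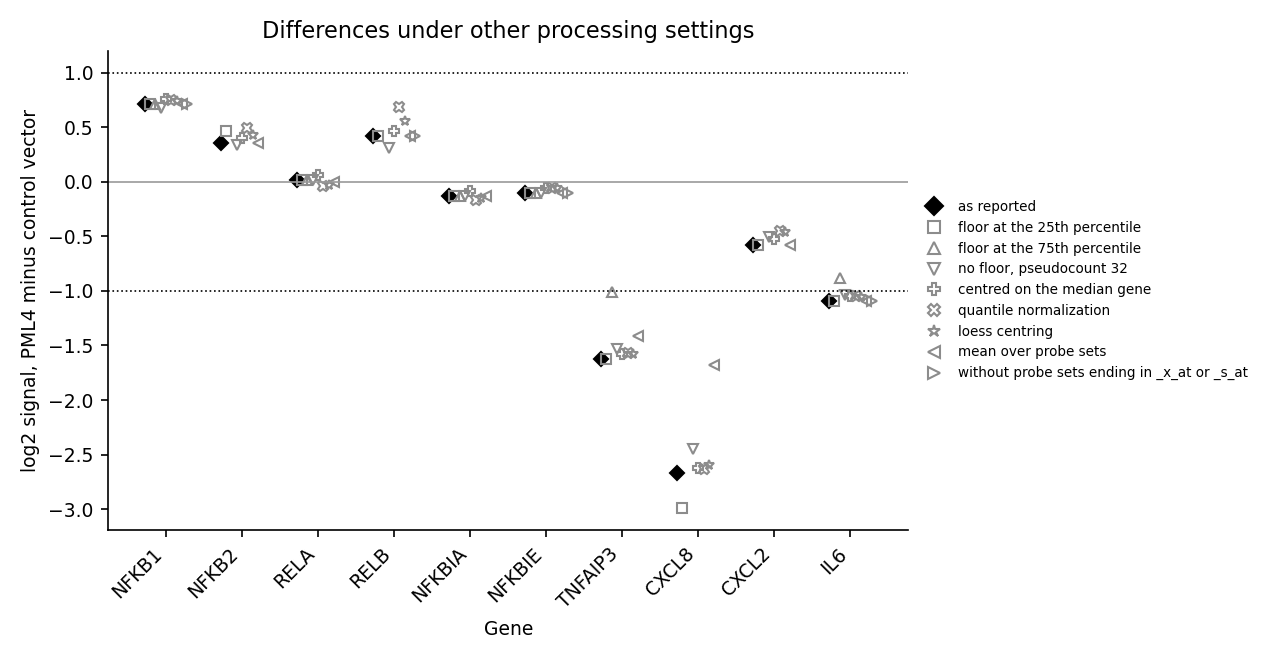
Difference in log2 signal, PML4 minus control vector, of each of the 10 genes as reported (filled diamonds) and under 8 other settings (open grey symbols). TNFAIP3 and CXCL8 lie past the 2-fold line under every setting that gave them a value. IL6 is at -0.88 when the floor is the 75th percentile. The IL6 and TNFAIP3 values at that floor are bounds, since their PML4 signals lie under it. CXCL8 has no value at that floor, and neither CXCL8 nor TNFAIP3 has one once _x_at and _s_at probe sets are left out.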

How the data were processed

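Total RNA (6 µg for labelling) from 2 K562 cultures, 1 per group, was hybridised to Affymetrix expression arrays. The deposited values are signal intensities on a linear scale, made with MAS5 per the submitters' processing notes. No version or setting of it is given in the sources used here. The deposited arrays had like means: after trimming 2% of probe sets at each end these were 500.1 for PML4 and 500.0 for the control. The table holds 54675 probe sets, 54613 of them human.

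Genes were named from GEO's platform annotation where a probe set had 1 gene (41091 human probe sets). Current symbols came through the Entrez identifier. Signals under the floor, the median human signal of 72.4, were raised to it before log2. Differences are log2 signals, PML4 minus control vector, and a call is at least 2-fold. Because each group has 1 array, no test, p-value or SE is given, and precision is limited by the number of arrays. The members and the lists were chosen with earlier results of these data known.

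Named genes are all members, the called genes (at most 4) and the 2 brightest of each list, the genes nearest to CXCL8 by difference, and PML. Exceptions are stated in the text. The alternatives were the 25th or 75th percentile as floor, a pseudocount of 32 in place of a floor, quantile normalization, loess centring (span 0.4), centring on the median gene, a gene's mean over its probe sets, removal of _x_at and _s_at probe sets, and calls at 1.5-fold and 3-fold. The code for calls was tested on simulated data. Python 3.11.15, pandas 2.3.3 and statsmodels 0.14.6 were used.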

Additional observations from a re-analysis of the deposited data

How the results depend on the processing

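Under the alternatives that gave a value, the signs of all members but RELA (which lay near 0, from -0.04 to 0.06) were as reported. TNFAIP3 ranged from -1.62 to -1.01, CXCL8 from -2.99 to -1.68, IL6 from -1.10 to -0.88, CXCL2 from -0.58 to -0.46 and NFKB1 from 0.68 to 0.76. The TNFAIP3 value of -1.01 and the IL6 value of -0.88 came with the 75th percentile as floor. CXCL8, at 460 in the control, was not measured there. That floor thus lies above the PML4 signals of TNFAIP3 (304.6) and IL6 (400.5), and both values are bounds. The CXCL8 value of -1.68 is the mean of its probe sets. The median of the subunits and inhibitors was 0.41 when _x_at and _s_at probe sets were removed, which leaves NFKB1, RELB and NFKBIE. The members held 3 lower calls in all but 3 alternatives: 1 when the floor was the 75th percentile, where CXCL8 was not measured and IL6 was at -0.88, 1 without those probe sets, where TNFAIP3 and CXCL8 had none left, and 2 at 3-fold. At 1.5-fold NFKB1 gave 1 higher call.

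The pathway lists held 14 lower and 4 higher calls when the floor was the 25th percentile, 0 and 0 when it was the 75th, 16 and 5 at 1.5-fold, and 0 lower at 3-fold. Centring, quantile normalization and loess centring each left 1 lower call, ATF3, which was lost with the mean over probe sets and without _x_at and _s_at probe sets. Over all genes there were 402 lower and 154 higher calls, 2000 and 667 at the lower floor, 63 and 50 at the higher floor, 1484 and 715 at 1.5-fold, and 59 and 27 at 3-fold. The higher share of these calls was 27.7% as reported, 41.1% after quantile normalization and 37.9% after loess centring. Except where fewer probe sets, a floor above a signal or another size of call explains it by construction, the cause was not tested. No paired analysis was possible because each group has 1 array. Signals near the floor limit RELB, NFKB2 and CXCL8.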
